A study of Mus musculus with 16 samples.

Results

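The atria of mouse embryos with a Cre-driven deletion of Meis1 and Meis2 (double knockout, dKO) were compared with atria of control embryos at embryonic day E15.5. The comparison took the 8 atrial libraries of the 16 in the series, 4 dKO and 4 control, each from a different embryo, and the 13950 genes of 16118 listed whose mean over all 16 libraries was at least 1 CPM (counts per gene scaled to a common library total, as deposited). All 8 embryos were homozygous for floxed alleles of both genes, and the 4 dKO embryos also carried 1 copy of a Cre recombinase under the alpha-myosin heavy chain promoter (αMHC-Cre), which is active in cardiomyocytes. The controls had no Cre, so an effect of Cre itself and an effect of the deletion cannot be told apart. Cells in which this promoter is silent, such as fibroblasts and endothelium, keep the floxed genes intact. The series names both a constitutive and an inducible deletion, and which of them was used for these embryos was not settled from the labels. Per the labels' protocols, 4 litters gave 1 embryo of each genotype, the outflow tract was cut away, and atria were separated from ventricles. The numbers in the sample titles do not match that pairing: 1 number holds 1 dKO embryo alone, another 2 embryos of each genotype, and the third 2 controls and 1 dKO embryo. Polyadenylated RNA was read from 20 ng of total RNA as single reads of 60 bases.

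MEIS1 and MEIS2 are homeodomain transcription factors of the TALE class, whose name refers to an extra loop of amino acids in the homeodomain. They bind DNA together with other homeodomain proteins, and the MEIS homeodomain recognises a short core sequence, TGACAG. In the developing heart they are known for roles in the progenitors of the outflow tract and atria, in septation and in the cell cycle of cardiomyocytes. At the stage sampled here the atria are thin-walled chambers in which myocytes already express atrial myosin light chains and natriuretic peptide.

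The atrial libraries held 14259189 to 19357338 recovered reads, and the floor of detection used here, 3 reads, was worth 0.139 to 0.190 CPM. Markers matched the labelled chamber in all 16 libraries. Sln, the calcium pump inhibitor sarcolipin of atrial myocytes, ranged from 222 to 429.5 CPM in atria and from 1.98 to 5.41 CPM in ventricles. Myl2, the regulatory myosin light chain of ventricles, ranged from 12.5 to 38.8 CPM in atria and from 2948 to 4417 CPM in ventricles. On the first principal component of the atrial libraries, with 28.9% of the variance, dKO atria lay between 11.1 and 20.7 and control atria between -19.98 and -12.8. On the second, with 21.04%, dKO atrium 4 stood apart at -30.4, while the other 7 libraries lay between -12.1 and 15.8. Values of single libraries are given below in the order of atria 1 to 4 of each genotype. This order is that of the deposited samples and pairs no embryos.

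Meis1 transcripts were lower in every dKO atrium, and Meis2 transcripts were not. Meis1 (ENSMUSG00000020160, chr11:18879817-19018985, GRCm38, minus strand) measured 25.8, 25.0, 22.9 and 30.5 CPM in dKO and 39.1, 37.9, 40.7 and 43.9 CPM in control atria. The 2 groups did not overlap, and dKO atrium 4 was the highest of its group. The log2 difference was -0.62 ± 0.09 (SE; limma adjusted p = 0.00135), and a two-sided exact permutation test of the CPM gave p = 0.0286, the smallest that 4 against 4 libraries allow. Meis2 (ENSMUSG00000027210, chr2:115863064-116065839, minus strand) measured 25.3, 25.1, 26.5 and 29.2 CPM in dKO and 22.8, 27.8, 25.4 and 25.5 CPM in control atria. Its groups overlapped, with a log2 difference of 0.063, limma adjusted p = 0.726 (exact permutation p = 0.486). Reads were counted over the whole gene, so transcripts without the floxed exon still count, and cells other than cardiomyocytes keep Meis transcripts, so these levels do not measure how complete the deletion was. Of the 4 tested Hox genes none was called by limma, edgeR or DESeq2, and none had an unadjusted limma p under 0.05.

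In total 1042 genes, 7.47% of those tested, differed between dKO and control atria at a limma adjusted p under 0.05 (moderated test on log2 of CPM plus 1, Benjamini-Hochberg over the 13950 genes), and such genes are named called here. Of these, 563 (4.04%) were higher and 479 (3.43%) lower in dKO atria. The changes were mostly small: the median absolute log2 difference of called genes was 0.49, and 527 of them changed by less than 0.5. A log2 difference of at least 1 was reached by 51 rises and 64 falls, and one of at least 2 by 3 rises and 9 falls. In 998 of the called genes the 4 dKO values lay wholly above or wholly below the 4 control values, against 1969 genes (14.1%) of all tested. Groups that do not overlap are thus usual among called genes. Where they are mentioned for called genes below, they add no separate support to the call. The called share grew with the level of the gene, from 92 of 2557 genes at an atrial mean of 1 to 5 CPM to 193 of 1502 genes over 100 CPM (12.8%). The called rises together took 6.39 to 6.69% of the listed CPM in dKO and 4.45 to 4.82% in control atria, and the called falls 3.95 to 4.23% and 5.79 to 6.03%. Leaving out any 1 library left 573 of the 1042 genes called each time, 302 higher and 271 lower. Without dKO atrium 3, 359 genes were called higher, and without control atrium 2 or control atrium 4, 313 were called lower. P-values here measure the spread between these embryos. RNA was bulk RNA of whole atria, so fewer cells of a type and less RNA per cell cannot be told apart for any gene below.

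**Figure D1:**
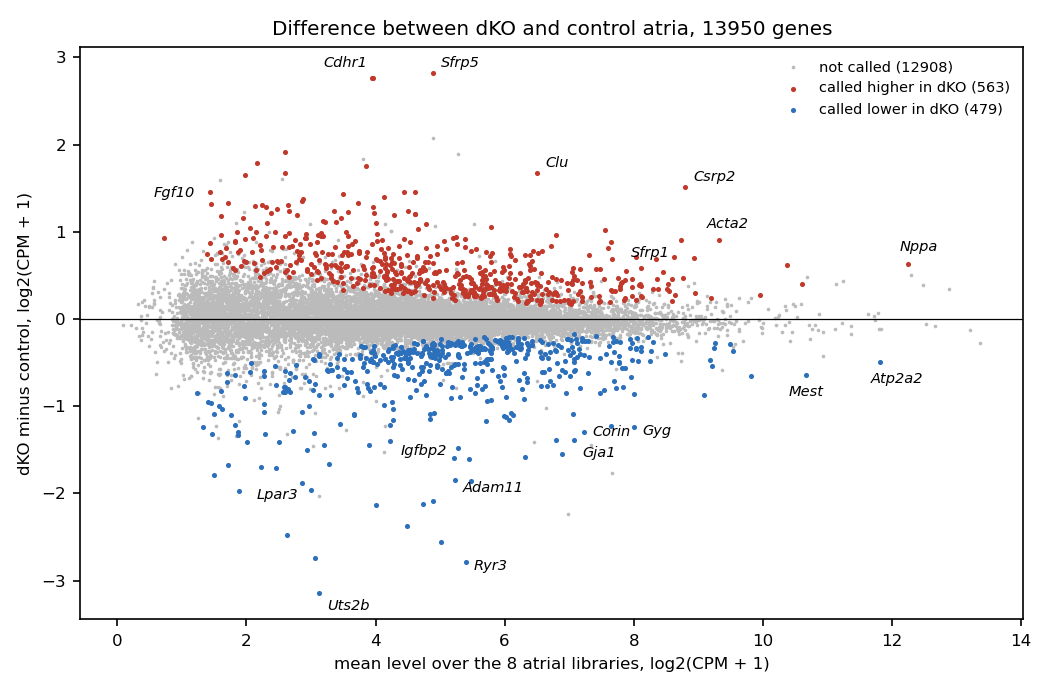
Difference between dKO and control atria (log2 of CPM plus 1) against the mean level over the 8 atrial libraries for 13950 genes. Each point is 1 gene; the 563 genes called higher are red, the 479 called lower blue, the others grey, and called genes are found at every level from Fgf10 at the low end to Nppa and Atp2a2 at the high end.

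The largest falls left several genes close to the floor of detection in dKO atria. Uts2b, which encodes a urotensin-like vasoactive peptide, measured 1.60, 0.142, 0.658 and 0.876 CPM in dKO and 16.9, 13.2, 11.1 and 17.5 CPM in control atria. dKO atrium 1 was the highest of its group and still far below the lowest control, and dKO atrium 2 was near the floor of 3 reads. The adaptor subunit Ap3b2, part of a vesicle coat complex best known from neurons, measured 0.408, 0.830, 1.02 and 2.93 CPM in dKO and 11.2, 10.9, 16.9 and 14.5 CPM in control atria. Dpp6, a subunit that speeds the gating of Kv4 potassium channels, measured 0.245, 0.790, 0.937 and 1.88 CPM in dKO and 8.11, 10.9, 9.44 and 9.44 CPM in control atria, and Cckar, a receptor for the gut peptide cholecystokinin, 0.353, 0.142, 0.419 and 1.13 CPM in dKO and 3.97, 5.36, 6.28 and 3.82 CPM in control atria. In Ap3b2, Dpp6 and Cckar dKO atrium 4 was the highest of its group. No group overlapped the other, which was a condition for choosing the largest falls and rises. The log2 differences were -3.14, limma adjusted p = 1.60e-05 for Uts2b, -2.74, limma adjusted p = 0.000132 for Ap3b2, -2.47, limma adjusted p = 6.56e-05 for Dpp6 and -1.97, limma adjusted p = 0.000262 for Cckar. For genes this low the fold depends on the pseudocount: over the alternatives the log2 difference of Uts2b ran from -4.26 to -1.75.

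In other large falls the dKO level stayed above 1 CPM in every library. Gsg1l, an auxiliary protein of AMPA-type glutamate receptors, measured 8.13, 7.88, 8.51 and 8.79 CPM in dKO and 58.6, 57.6, 41.2 and 60.6 CPM in control atria. The 4 dKO values spanned 0.908 CPM, and control atrium 3 was the lowest control. Ryr3, an intracellular calcium release channel whose exons overlap another listed gene, measured 10.7, 7.31, 12.2 and 8.99 CPM in dKO and 79.0, 67.2, 71.5 and 72.0 CPM in control atria. Dgkk, a diacylglycerol kinase, measured 6.28, 4.23, 7.19 and 7.88 CPM in dKO and 35.9, 33.2, 39.1 and 38.2 CPM in control atria. Lpar3, a receptor for lysophosphatidic acid, was among the 15 largest falls with 1.93, 2.25, 2.61 and 2.23 CPM in dKO and 11.1, 12.8, 10.1 and 12.99 CPM in control atria, a log2 difference of -1.97 ± 0.12 (SE; limma adjusted p = 4.56e-06). Ppp1r17, an inhibitor of protein phosphatases, measured 1.06, 1.84, 3.21 and 2.58 CPM in dKO and 11.3, 11.1, 9.74 and 9.19 CPM in control atria (log2 -1.88, limma adjusted p = 0.000201). Adam11, a member of the ADAM family without protease activity, measured 17.3, 12.9, 16.4 and 14.7 CPM in dKO and 55.7, 63.8, 48.7 and 62.6 CPM in control atria (log2 -1.84, limma adjusted p = 2.61e-06). Cited1, a transcriptional co-regulator, measured 24.2, 13.1, 15.01 and 22.4 CPM in dKO and 58.6, 60.4, 74.3 and 80.7 CPM in control atria (log2 -1.85, limma adjusted p = 0.000104), with dKO atria 1 and 4 above dKO atria 2 and 3. In each of them the groups stayed apart, as the choice of genes required, and the highest dKO value was at most 41.2% of the lowest control value, the figure for Cited1.

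Among the largest rises, Sfrp5, a secreted Wnt antagonist, measured 46.3, 56.0, 49.0 and 51.4 CPM in dKO and 8.47, 6.99, 4.196 and 6.23 CPM in control atria. The cadherin family gene Cdhr1 measured 26.6, 34.4, 30.8 and 13.2 CPM in dKO and 3.65, 3.33, 2.77 and 1.71 CPM in control atria, with dKO atrium 4 below the other 3 dKO libraries. Arhgap36, a protein known to inhibit protein kinase A and to activate hedgehog signalling, measured 29.4, 24.6, 28.1 and 18.997 CPM in dKO and 5.80, 5.76, 2.06 and 0.528 CPM in control atria. In Arhgap36 control atria 3 and 4 were lower than control atria 1 and 2, and the lowest dKO value was above all of them. Csrp2, a LIM protein of smooth muscle and of the early myocardium, rose from a higher level, with 653, 711, 604 and 662 CPM in dKO and 244, 198, 229.6 and 249 CPM in control atria. Fgf10, a growth factor ligand made by cardiac progenitors, came from levels under 1 CPM in all controls, with 3.72, 2.45, 3.25 and 2.43 CPM in dKO and 0.379, 0.199, 0.636 and 0.570 CPM in control atria (log2 1.45, limma adjusted p = 0.000604). Lingo1, a leucine-rich repeat membrane protein of the Nogo receptor complex, measured 31.6, 37.4, 29.2 and 25.9 CPM in dKO and 10.5, 9.91, 10.3 and 11.8 CPM in control atria (log2 1.45, limma adjusted p = 1.60e-05). The Notch-related receptor Dner measured 15.2, 17.3, 15.6 and 13.5 CPM in dKO and 3.93, 4.52, 6.03 and 5.98 CPM in control atria (log2 1.44, limma adjusted p = 8.31e-05). Groups were apart in all of these rises, as the choice of genes required. Ripor2, an inhibitor of the small GTPase RhoA, measured 26.8, 28.2, 27.4 and 16.04 CPM in dKO and 8.47, 9.91, 8.06 and 7.71 CPM in control atria, with dKO atrium 4 lower than the other dKO atria and still above every control. Syndig1, a membrane protein of synapses, measured 11.2, 9.05, 9.23 and 9.09 CPM in dKO and 3.21, 2.45, 3.69 and 3.15 CPM in control atria, with dKO atrium 1 the highest. Ces1d, a carboxylesterase with close paralogs whose reads could be shared, measured 9.92, 9.21, 6.996 and 7.83 CPM in dKO and 1.22, 1.61, 2.72 and 0.824 CPM in control atria. Alox5, the lipoxygenase that starts leukotriene synthesis, measured 5.35, 9.01, 4.13 and 5.48 CPM in dKO and 1.22, 1.08, 1.14 and 0.486 CPM in control atria, and Gad1, which makes the transmitter GABA, 5.03, 4.76, 5.44 and 4.68 CPM in dKO and 1.45, 0.507, 0.788 and 0.993 CPM in control atria.

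**Figure D2:**
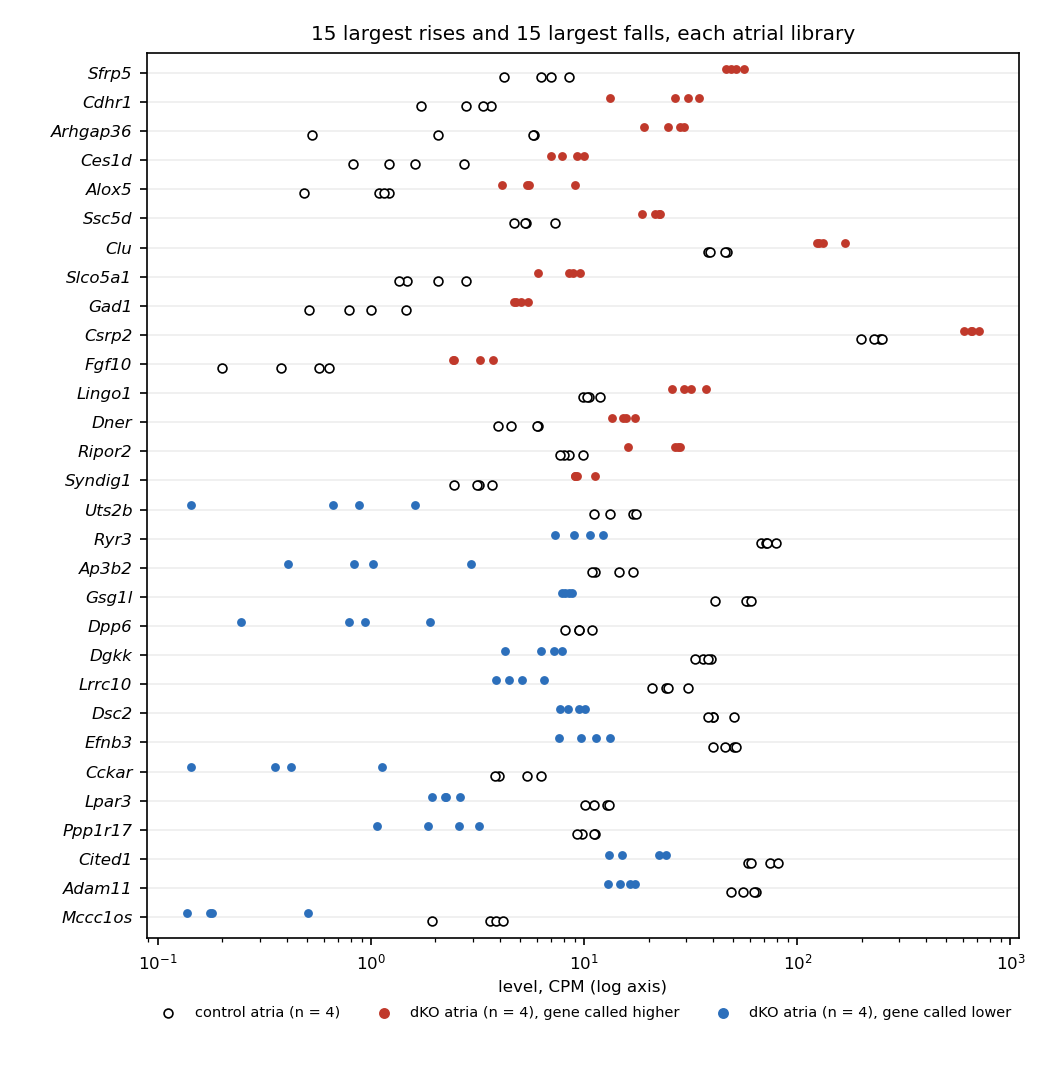
Level in each atrial library (CPM, log axis) of the 15 genes with the largest rises and the 15 with the largest falls, taken from called genes without overlap between groups. Open circles are the 4 control atria and filled circles the 4 dKO atria; the gaps are widest in Uts2b, Ryr3, Ap3b2 and Gsg1l among the falls and in Sfrp5, Cdhr1 and Arhgap36 among the rises.

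The promoters of the 3 largest falls and 3 largest rises that had an entry in the promoter table are shown because MEIS proteins bind the core TGACAG. Each window runs 5′ to 3′ on the strand of the gene, from 250 bases before to 50 bases after the transcription start in RefSeq (GRCm38.p6), and the capitals mark TGACAG or its reverse complement CTGTCA, so both strands were searched. The falls are Uts2b at chr16:27370190-27370489 on the minus strand, Ap3b2 at chr7:81493876-81494175 on the minus strand and Dpp6 at chr5:26817107-26817406 on the plus strand. The rises are Sfrp5 at chr19:42202203-42202502 on the minus strand, Cdhr1 at chr14:37098298-37098597 on the minus strand and Arhgap36 at chrX:49463695-49463994 on the plus strand.
Uts2b: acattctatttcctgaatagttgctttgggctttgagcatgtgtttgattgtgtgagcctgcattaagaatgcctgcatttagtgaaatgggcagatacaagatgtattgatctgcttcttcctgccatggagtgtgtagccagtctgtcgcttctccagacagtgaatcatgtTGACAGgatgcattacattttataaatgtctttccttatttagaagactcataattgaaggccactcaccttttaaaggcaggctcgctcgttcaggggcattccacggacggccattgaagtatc
Ap3b2: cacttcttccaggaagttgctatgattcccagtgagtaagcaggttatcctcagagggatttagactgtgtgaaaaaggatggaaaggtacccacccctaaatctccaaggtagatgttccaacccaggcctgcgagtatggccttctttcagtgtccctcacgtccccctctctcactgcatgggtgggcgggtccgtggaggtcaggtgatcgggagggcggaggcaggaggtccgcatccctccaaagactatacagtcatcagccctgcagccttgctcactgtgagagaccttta
Dpp6: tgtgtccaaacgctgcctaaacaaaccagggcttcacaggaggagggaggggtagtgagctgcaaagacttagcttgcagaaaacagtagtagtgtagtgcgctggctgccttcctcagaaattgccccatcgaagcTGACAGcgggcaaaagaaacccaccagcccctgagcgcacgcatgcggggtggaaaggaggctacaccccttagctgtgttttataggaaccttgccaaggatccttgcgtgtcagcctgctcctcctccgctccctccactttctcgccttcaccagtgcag
Sfrp5: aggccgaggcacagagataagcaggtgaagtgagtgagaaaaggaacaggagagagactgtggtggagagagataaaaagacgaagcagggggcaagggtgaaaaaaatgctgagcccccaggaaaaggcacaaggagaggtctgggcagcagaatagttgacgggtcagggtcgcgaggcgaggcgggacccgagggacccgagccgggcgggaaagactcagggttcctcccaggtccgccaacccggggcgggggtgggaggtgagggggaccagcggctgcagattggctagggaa
Cdhr1: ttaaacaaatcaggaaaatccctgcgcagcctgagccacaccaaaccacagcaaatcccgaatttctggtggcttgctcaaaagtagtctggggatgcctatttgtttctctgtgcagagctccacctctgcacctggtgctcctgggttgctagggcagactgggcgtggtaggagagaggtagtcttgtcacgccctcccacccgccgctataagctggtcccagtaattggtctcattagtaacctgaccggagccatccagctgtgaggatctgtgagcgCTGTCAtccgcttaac
Arhgap36: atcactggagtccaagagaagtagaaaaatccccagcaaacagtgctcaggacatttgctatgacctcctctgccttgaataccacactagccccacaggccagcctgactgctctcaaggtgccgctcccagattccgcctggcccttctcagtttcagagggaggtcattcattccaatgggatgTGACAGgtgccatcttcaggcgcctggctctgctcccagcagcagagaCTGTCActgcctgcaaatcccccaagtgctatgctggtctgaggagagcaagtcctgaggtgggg

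Of the 6 windows, 4 held the core: Uts2b, Dpp6 and Cdhr1 held 1 copy each and Arhgap36 held 2. Over all 32851 promoter windows in the table, 19.2% held it. Among genes tested in atria with an entry the share was 16.4% (1697 of 10323), among genes called higher 18.4% (75 of 408) and among genes called lower 17.2% (63 of 366). Of the 15 largest falls 8 had an entry and 4 of these held it, and of the 15 largest rises 10 had an entry and 2 held it. A match describes letters in the window and is no evidence of binding, and windows of this size leave out distal elements.

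The largest shifts in CPM, taken from called genes without overlap between groups, fell on abundant transcripts of the myocardium and its matrix. Nppa, the gene of atrial natriuretic peptide, measured 6604, 5490.3, 6427 and 5160.1 CPM in dKO and 4608, 3876, 3185 and 3640.1 CPM in control atria (log2 0.63, limma adjusted p = 0.0184). Its groups did not overlap, but its exons overlap another listed gene, and the call was lost without control atrium 2, 3 or 4 or dKO atrium 3 (log2 0.55 to 0.64), with no filter on low values, with quantile normalization (log2 0.46) and within the title number that holds 2 embryos of each genotype (log2 0.49). The matrix gene Sparc, given with its list below, came next, followed by Csrp2, Acta2, the smooth muscle actin, and Sfrp1, a secreted Wnt antagonist; these 4 kept their call in every alternative. Acta2 measured 722, 779, 931 and 919.5 CPM in dKO and 507, 438, 435 and 404 CPM in control atria (log2 0.90, limma adjusted p = 0.000218). Sfrp1 measured 574, 565, 526 and 536 CPM in dKO and 326, 298, 287 and 268 CPM in control atria (log2 0.90, limma adjusted p = 1.60e-05). Sln, the inhibitor of the calcium pump in atrial myocytes, measured 429.5, 410.4, 366 and 395 CPM in dKO and 232, 261, 222 and 278 CPM in control atria (log2 0.69, limma adjusted p = 0.000332). The lowest dKO value lay 215 CPM above the highest control value in Acta2, 200.1 CPM in Sfrp1 and 88.3 CPM in Sln. Rbpms, an RNA-binding protein of muscle, measured 386 to 446 CPM in dKO against 268 to 302 CPM in control atria, and the lysosomal protease gene Ctsd, which shares exonic sequence with another listed gene, 492 to 512 CPM in dKO against 332 to 400.1 CPM in control atria.

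Among abundant falls, Atp2a2, the calcium pump of the sarcoplasmic reticulum, measured 3119, 3127, 2992 and 2665 CPM in dKO and 3973, 4210.4, 4179 and 4431 CPM in control atria (log2 -0.50, limma adjusted p = 0.00907), and its exons overlap another listed gene. Gyg, glycogenin, the protein primer of glycogen, measured 156, 136, 151 and 163 CPM in dKO and 336, 347, 369 and 383 CPM in control atria (log2 -1.24, limma adjusted p = 2.20e-06). Its highest dKO value was 48.5% of its lowest control value. Hspb7, a small heat shock protein of heart muscle that binds filamin, measured 349, 362, 413 and 410.5 CPM in dKO and 629, 717, 670.3 and 802 CPM in control atria (log2 -0.87, limma adjusted p = 0.000117). Gpx3, the secreted glutathione peroxidase, measured 819, 622, 640.1 and 715 CPM in dKO and 1122, 1107, 1091 and 1062 CPM in control atria (log2 -0.66, limma adjusted p = 0.000905), with dKO atrium 1 the highest of its group. Itga6, the alpha subunit of a laminin receptor, measured 205, 186, 194 and 144 CPM in dKO and 351, 329.6, 304 and 329.8 CPM in control atria (log2 -0.86, limma adjusted p = 0.000306), with dKO atrium 4 the lowest. All 5 kept apart from the controls in every library, as the choice of genes required.

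LIM and Z-disc proteins, which link the contractile filaments to stretch and gene regulation, held a high share of called genes, and they moved both ways. Of 27 tested members 6 rose and 6 fell, with a median log2 difference of -0.11 beside -0.0046 over all tested genes. Over all tested genes 4.04% were called higher and 3.43% lower, and the counts of this and the following lists stand beside these shares. Among genes with an atrial mean over 100 CPM the called share was 12.8%, so lists of abundant genes stand beside a higher share. Csrp2 led the rises. Fhl2, a LIM protein of the sarcomere and nucleus, fell, with 65.0, 51.9, 47.1 and 75.0 CPM in dKO and 123, 126, 158 and 234 CPM in control atria (log2 -1.38, limma adjusted p = 0.00146). Lrrc10, a leucine-rich repeat protein of the cardiac Z-disc region, fell, with 6.44, 5.12, 3.85 and 4.43 CPM in dKO and 24.3, 24.7, 20.9 and 30.7 CPM in control atria (log2 -2.14, limma adjusted p = 1.09e-05). Synpo2, an actin-binding Z-disc protein, fell by a smaller amount, with 102, 103, 105 and 97.04 CPM in dKO and 144, 141, 135 and 151 CPM in control atria (log2 -0.48, limma adjusted p = 0.000214). The 4 dKO values of Synpo2 spanned 7.66 CPM, and all lay below the lowest control.

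Of 43 sarcomere filament genes 10 fell and 4 rose, with a median of -0.12. Tnnt1, the slow skeletal troponin T, fell, with 53.2, 43.6, 58.7 and 83.4 CPM in dKO and 139.6, 149, 193 and 217 CPM in control atria (log2 -1.55, limma adjusted p = 0.000438). Myl3, the ventricular essential myosin light chain, measured 59.1, 34.3, 31.3 and 33.1 CPM in dKO and 116, 133, 88.4 and 133 CPM in control atria (log2 -1.58, limma adjusted p = 0.000454), with dKO atrium 1 above the other dKO atria and below every control. Myh7b, a myosin heavy chain of slow muscle, measured 13.9, 9.70, 10.7 and 9.44 CPM in dKO and 25.5, 28.6, 22.6 and 25.5 CPM in control atria (log2 -1.16, limma adjusted p = 0.000155). Tmod1, which caps the ends of actin filaments, measured 159, 159, 142 and 153 CPM in dKO and 249, 270.0, 245 and 301 CPM in control atria (log2 -0.79, limma adjusted p = 6.86e-05). Exons of Myl3, Myh7b and Tmod1 overlap other listed genes, so their values are uncertain without a stated use of strand. The count of 4 rises includes Acta2, and the smooth muscle and pericyte markers, a list of 10 genes that includes Acta2, summed to 1389, 1506, 1825 and 1734 CPM in dKO and 1246, 1143, 1145 and 1110.3 CPM in control atria. Of these 10 markers 4 rose and 1, Abcc9, fell (2 falls without dKO atrium 3 or dKO atrium 4). Without Acta2 they summed to 667, 727, 894 and 814 CPM in dKO and 739, 705, 710.0 and 706 CPM in control atria, with dKO atrium 1 below every control. Of 14 ventricular myocyte markers 5 fell, Myl3, Gja1, Lrrc10, Cited1 and Pln, and 1 rose, Mpped2 (2 rises without dKO atrium 1, control atrium 2 or control atrium 4). They summed to 1393, 538, 550.2 and 1354 CPM in dKO and 888, 1271, 1332 and 2167 CPM in control atria, and the groups overlapped. Of 18 atrial myocyte markers 4 rose, among them Nppa and Sln, and 3 fell, among them Dkk3 (median 0.063). The 18 atrial myocyte markers summed to 23097, 20584, 20852 and 19408 CPM in dKO and 17217, 16931, 15591 and 17224 CPM in control atria. These sums did not overlap. The part of any of these cell types in these results was not tested.

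Of 24 intercalated disc genes 4 fell and 2 rose, with a median of -0.12. The intercalated disc holds the desmosomes and gap junctions that join cardiomyocytes. Dsc2, the cardiac desmosomal cadherin desmocollin 2, measured 9.43, 8.40, 7.67 and 10.04 CPM in dKO and 50.3, 40.004, 40.4 and 38.0 CPM in control atria (log2 -2.12 ± 0.11 (SE; limma adjusted p = 2.20e-06)). Gja1, the gap junction protein connexin 43, measured 80.2, 61.5, 80.7 and 69.9 CPM in dKO and 195, 191, 166 and 221 CPM in control atria (log2 -1.39, limma adjusted p = 1.37e-05). Pkp2, a desmosomal plaque protein, measured 96.7, 87.2, 86.2 and 73.5 CPM in dKO and 113, 121, 103 and 132 CPM in control atria (log2 -0.44, limma adjusted p = 0.0135). All 3 were lower in every dKO atrium than in any control atrium. Bves, a membrane protein of the disc known as Popdc1, rose, with 151, 152, 159 and 134 CPM in dKO and 115, 110.5, 103 and 122 CPM in control atria (log2 0.40, limma adjusted p = 0.00458). Without dKO atrium 2, control atrium 2 or dKO atrium 3 only 1 of the rises in this list was called.

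**Figure D3:**
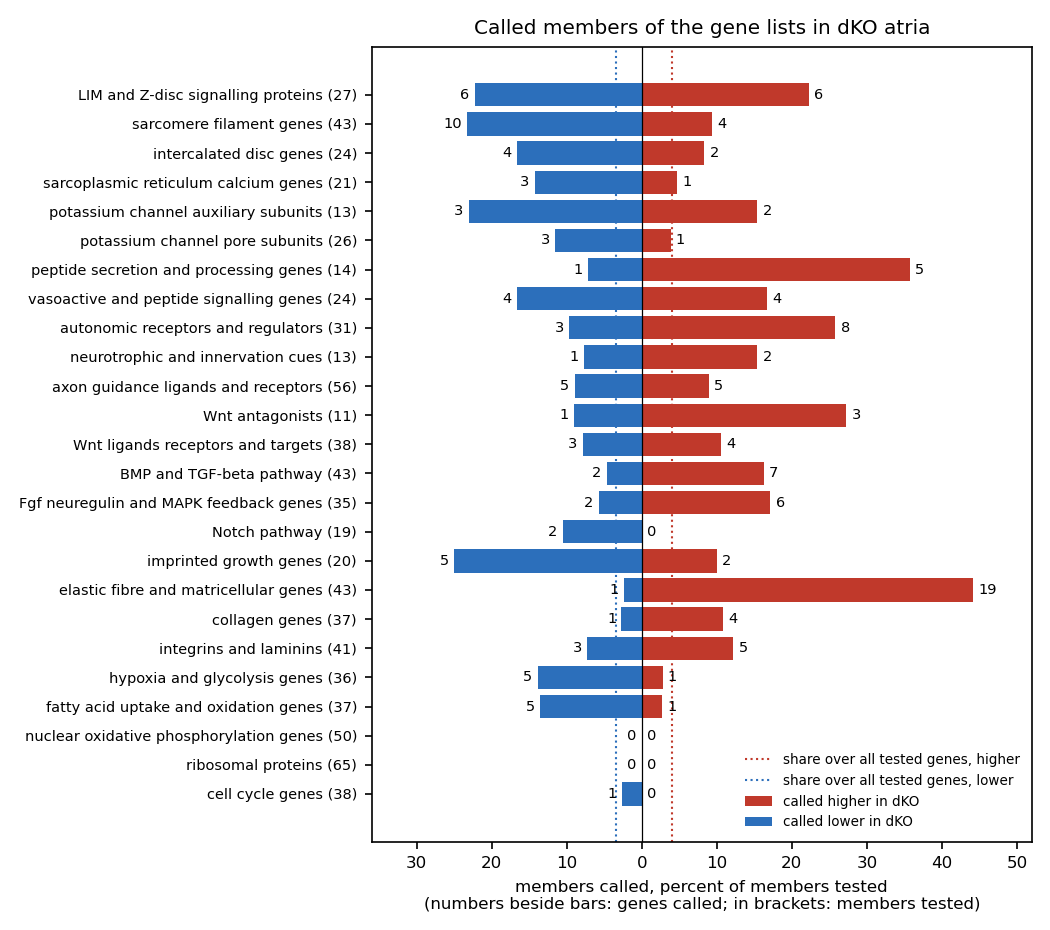
Share of tested members called higher (red, to the right) or lower (blue, to the left) in dKO atria for 25 gene lists, in percent of the members tested. Numbers beside the bars are genes and numbers in brackets are members tested; dotted lines mark 4.04% and 3.43%, the shares over all 13950 tested genes, and the bars are longest for the 19 rises among 43 elastic fibre and matricellular genes.

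Calcium and potassium currents and stores set the beat of the myocyte, and several of their genes fell. Of 21 genes of calcium release and uptake by the sarcoplasmic reticulum 3 fell, Ryr3, Atp2a2 and Pln, and 1 rose, Sln (median -0.057). Without dKO atrium 1 the falls numbered 5, and Pln, the pump inhibitor phospholamban, kept its call in 10 of 20 alternatives. Of 15 calcium channel subunits 3 fell and none rose (limma; 1 rose and 5 fell at an unadjusted p under 0.05, edgeR and DESeq2 called 0 rises, and 1 rose without dKO atrium 1). Cacna1c, the pore of the cardiac L-type channel, measured 60.3, 69.0, 60.9 and 51.3 CPM in dKO and 102, 98.4, 94.8 and 104 CPM in control atria (log2 -0.72, limma adjusted p = 0.000259). Cacna2d2, an auxiliary channel subunit, measured 89.5, 120.1, 112 and 97.1 CPM in dKO and 208, 189, 158 and 174 CPM in control atria (log2 -0.80, limma adjusted p = 0.000784). Both were apart from control in every library.

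Of 13 auxiliary subunits of potassium channels 3 fell and 2 rose (median -0.10). Beside Dpp6, the falls were the sulfonylurea receptors of the ATP-sensitive channel. Abcc9 measured 40.1, 42.7, 37.9 and 35.6 CPM in dKO and 86.1, 83.4, 87.4 and 86.0 CPM in control atria (log2 -1.12 ± 0.06 (SE; limma adjusted p = 2.20e-06)). Abcc8 measured 49.6, 44.3, 39.8 and 36.9 CPM in dKO and 59.4, 64.0, 52.5 and 69.0 CPM in control atria (log2 -0.51, limma adjusted p = 0.0106). The controls of Abcc9 spanned 3.98 CPM, and the gap to the highest dKO value was 40.6 CPM. The number of rises in this list rested on single libraries: it was 4 without dKO atrium 1, 1 without control atrium 3, and 0 without control atrium 1, dKO atrium 2, dKO atrium 3 or control atrium 4. Of 26 pore subunits 3 fell and 1 rose (median -0.094); the rise was 0 without control atrium 1, dKO atrium 2 or dKO atrium 3 and 2 without dKO atrium 4. Kcnq5, of the M-type current family, measured 5.95, 5.57, 5.32 and 5.33 CPM in dKO and 11.1, 13.2, 14.7 and 17.8 CPM in control atria (log2 -1.20, limma adjusted p = 0.000232). Kcnq1, the channel of the slow delayed rectifier, whose exons overlap another gene, measured 6.55, 5.73, 7.55 and 8.43 CPM in dKO and 14.1, 19.4, 14.9 and 16.7 CPM in control atria (log2 -1.10, limma adjusted p = 0.000406). Camk2a, a calcium and calmodulin dependent kinase outside these lists, fell as well, with 76.6, 77.6, 81.4 and 70.9 CPM in dKO and 123, 120.5, 105 and 123 CPM in control atria (log2 -0.61, limma adjusted p = 0.000233). It belongs to a list of CaMKII and calcineurin genes, of which 23 were tested and 20 were not called. In that list 2 fell and 1 rose (median -0.052), and the related kinase genes Camk2b, Camk2d and Camk2g were not called. The fits that left out 1 library called 0 to 1 rises and 2 to 3 falls there.

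Atrial myocytes store natriuretic peptides in granules, and of 14 tested genes of peptide secretion and processing 5 rose and 1 fell in dKO atria, and the median log2 difference was 0.40. Furin, a protease that cuts peptide precursors, measured 213, 233, 237 and 172 CPM in dKO and 152, 153, 135 and 130.1 CPM in control atria (log2 0.57, limma adjusted p = 0.00462). Cpe, which trims the ends of cut peptides, measured 491, 413, 399 and 374 CPM in dKO and 304, 319, 338 and 303 CPM in control atria (log2 0.40, limma adjusted p = 0.012). Syt7, a calcium sensor of vesicle release, measured 11.7, 9.74, 8.47 and 8.53 CPM in dKO and 6.32, 5.58, 4.81 and 4.71 CPM in control atria (log2 0.74, limma adjusted p = 0.00574). The call of Syt7 was lost within the title number that holds 2 embryos of each genotype. The fall was Corin, the membrane protease that activates atrial natriuretic peptide, with 108, 85.7, 75.9 and 75.8 CPM in dKO and 209, 231, 191 and 214 CPM in control atria (log2 -1.29, limma adjusted p = 3.17e-05). The lowest control of Corin was above the highest dKO value, so Nppa and the protease of its product differed in opposite directions. Without control atrium 2, dKO atrium 3 or control atrium 3 the rises of this list numbered 3.

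Of 24 vasoactive and peptide signalling genes 4 rose and 4 fell (median 0.065), and no single library moved these counts by more than 1.5 times. Edn1, the precursor of endothelin 1, rose, with 19.9, 19.7, 24.3 and 18.4 CPM in dKO and 10.5, 10.6, 10.4 and 14.2 CPM in control atria (log2 0.80, limma adjusted p = 0.00175), while Ednra, its receptor, fell, with 57.9, 52.2, 55.4 and 54.1 CPM in dKO and 95.4, 98.4, 94.7 and 98.4 CPM in control atria (log2 -0.81, limma adjusted p = 4.66e-06). Both were apart in all libraries, and exons of Ednra overlap another listed gene. The peptide gene Adm, for adrenomedullin, measured 13.6, 15.53, 15.05 and 17.6 CPM in dKO and 18.8, 20.5, 23.2 and 22.7 CPM in control atria (log2 -0.44, limma adjusted p = 0.0185) and lost its call without control atrium 3, control atrium 4 or dKO atrium 3, within the title number that holds 2 embryos of each genotype, and with all 16 libraries and the embryo as a block. Uts2b and Cckar, described above, were the other falls.

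Of 31 autonomic receptors and regulators, which carry sympathetic and parasympathetic signals into the myocyte, 8 rose and 3 fell (median 0.10). Adrenergic alpha-1 receptors split: Adra1b fell, with 1.11, 2.13, 2.01 and 3.33 CPM in dKO and 7.27, 6.55, 6.08 and 8.68 CPM in control atria (log2 -1.41, limma adjusted p = 0.00155), and Adra1d rose, with 4.87, 5.24, 3.37 and 3.78 CPM in dKO and 1.10, 1.302, 1.96 and 1.16 CPM in control atria (log2 1.16, limma adjusted p = 0.00198). Neither gene's groups overlapped. Gnao1, a G protein alpha subunit of the inhibitory class, measured 206, 206, 214 and 185 CPM in dKO and 137, 132, 136 and 138 CPM in control atria (log2 0.57, limma adjusted p = 0.000104). Adcy5, a main cardiac adenylyl cyclase, measured 112, 114, 99.4 and 101 CPM in dKO and 158, 163, 149 and 179 CPM in control atria (log2 -0.60, limma adjusted p = 0.000352). The 4 controls of Gnao1 spanned 6.07 CPM and lay 46.3 CPM or more below the lowest dKO value.

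Of 13 neurotrophic and innervation cues 1 fell and 2 rose, and the fall was the largest of the list. Nrtn, neurturin, a ligand that supports parasympathetic neurons of the heart, measured 7.69, 7.43, 4.84 and 8.38 CPM in dKO and 19.2, 19.7, 20.4 and 23.5 CPM in control atria (log2 -1.44 ± 0.14 (SE; limma adjusted p = 0.000111)). The highest dKO value was 43.6% of the lowest control value. The rises were the heparin-binding factors Mdk (log2 0.44, limma adjusted p = 0.0168) and Ptn (log2 0.58, limma adjusted p = 0.015); both lost their call without control atrium 4, and 1 rise was called without control atrium 2 or dKO atrium 3. Without dKO atrium 4 the falls numbered 2. Neuron and glia markers, 17 genes listed of which 4 were under 1 CPM on average and none was at 0 reads throughout, summed to 104, 113, 147 and 155 CPM in dKO and 130.5, 116, 216 and 139.7 CPM in control atria, and the groups overlapped. Of the 10 members tested 1 had a positive log2 difference (median -0.30), and limma, edgeR and DESeq2 called none. The list includes Hand2, which is also a cardiac transcription factor. The part of nerve cells in the results of this paragraph was not tested. Of 56 axon guidance ligands and receptors 5 rose and 5 fell (median 0.082), with 3 rises without dKO atrium 2 and 10 without dKO atrium 4. The falls included 3 secreted or membrane ligands. Ntn1, netrin 1, measured 61.3, 39.2, 37.4 and 37.4 CPM in dKO and 98.4, 95.8, 75.6 and 106 CPM in control atria (log2 -1.10, limma adjusted p = 0.0013), Slit3 72.3, 83.7, 81.9 and 75.2 CPM in dKO and 134, 135, 124 and 122 CPM in control atria (log2 -0.71, limma adjusted p = 5.63e-05). Efnb3, an ephrin, measured 7.58, 9.62, 11.3 and 13.1 CPM in dKO and 45.8, 50.6, 40.4 and 51.7 CPM in control atria (log2 -2.09, limma adjusted p = 8.85e-06). In Ntn1 dKO atrium 1 was higher than the other dKO atria. Sema6d, a membrane semaphorin studied in cardiac morphogenesis, also fell, with 77.9, 69.6, 63.3 and 64.6 CPM in dKO and 115, 112, 111 and 133 CPM in control atria (log2 -0.77, limma adjusted p = 0.000165).

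Secreted Wnt antagonists bind Wnt ligands or their receptors, and of 11 tested 3 rose and 1 fell (median 0.28). Besides Sfrp5 and Sfrp1, Sost, a ligand of Wnt co-receptors, rose, with 16.1, 12.7, 9.91 and 10.5 CPM in dKO and 6.16, 6.11, 6.28 and 7.03 CPM in control atria (log2 0.83, limma adjusted p = 0.00417). Dkk3 fell, with 181, 146, 170.5 and 168 CPM in dKO and 332, 299.7, 233 and 287 CPM in control atria (log2 -0.78, limma adjusted p = 0.000814). The rises numbered 2 to 4 over the alternatives, and with all 16 libraries and the embryo as a block Sost lost its call (limma adjusted p = 0.0568). Of 38 Wnt ligands, receptors and targets 4 rose and 3 fell (median -0.052), with 2 rises without dKO atrium 3 and 1 fall without control atrium 1 or control atrium 4. Fzd1, a Wnt receptor, measured 109.9, 111, 111 and 101 CPM in dKO and 61.9, 67.1, 60.9 and 61.4 CPM in control atria (log2 0.78, limma adjusted p = 1.33e-05). Wnt5a, a ligand of the non-canonical branch, measured 29.5, 23.4, 25.2 and 25.1 CPM in dKO and 38.6, 46.0, 37.3 and 38.9 CPM in control atria (log2 -0.62, limma adjusted p = 0.00135). Both kept their groups apart.

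Of 43 genes of the BMP and TGF-beta pathway 7 rose and 2 fell (median 0.17). The number of rises was 2 to 4 without control atrium 1, dKO atrium 2, dKO atrium 3, control atrium 3 or control atrium 4, and 1 fall was called without control atrium 1, control atrium 2, dKO atrium 3 or control atrium 4. Bmp2, a ligand of the atrioventricular canal, measured 27.9, 29.5, 26.4 and 23.8 CPM in dKO and 15.4, 15.9, 16.8 and 14.97 CPM in control atria (log2 0.73, limma adjusted p = 0.000255). Bmp5 measured 22.0, 16.9, 19.7 and 15.49 CPM in dKO and 30.7, 31.8, 40.7 and 35.6 CPM in control atria (log2 -0.87, limma adjusted p = 0.000979). Thus 2 ligands of the same family moved apart in every library. Smad7, a feedback inhibitor of the pathway, measured 52.2, 59.3, 57.8 and 54.7 CPM in dKO and 42.3, 38.3, 39.0 and 49.2 CPM in control atria (log2 0.40, limma adjusted p = 0.0117). Tbx2, a T-box repressor of the atrioventricular canal that lies outside this list, rose, with 19.8, 38.0, 28.2 and 31.4 CPM in dKO and 16.04, 13.6, 18.1 and 13.2 CPM in control atria (log2 0.88, limma adjusted p = 0.00916). It was the 1 gene that limma called among 11 tested T-box and Iroquois factors (9.09% beside 7.47% over all tested genes). Without dKO atrium 1 or control atrium 3, limma called 2 rises among these factors.

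Of 35 genes of Fgf, neuregulin and related growth factor signalling 6 rose and 2 fell (median 0.21). Fgf10 and Pdgfb, a ligand of the platelet-derived growth factor family, were the largest rises. Pdgfb measured 7.42, 10.4, 11.9 and 12.0 CPM in dKO and 4.80, 5.14, 4.25 and 4.92 CPM in control atria (log2 0.97, limma adjusted p = 0.00203), and its receptor Pdgfrb 72.3, 68.2, 65.4 and 73.9 CPM in dKO and 50.04, 50.02, 62.2 and 50.5 CPM in control atria (log2 0.39, limma adjusted p = 0.0106). Pdgfrb also marks pericytes, whose marker sums are given above, and control atrium 3 was its highest control. Igfbp2, a binding protein of insulin-like growth factors, fell, with 24.9, 13.1, 18.04 and 29.0 CPM in dKO and 68.8, 63.4, 68.1 and 57.5 CPM in control atria (log2 -1.61, limma adjusted p = 0.000404). Etv1, a transcription factor of the conduction system and atrium, fell, with 55.2, 46.9, 44.2 and 35.6 CPM in dKO and 80.8, 75.0, 67.1 and 75.0 CPM in control atria (log2 -0.71, limma adjusted p = 0.00271). Of 19 Notch pathway genes 2 fell and none rose by limma, 10.5% called beside 7.47% over all tested genes. Hey1, a Notch target of the atrial myocardium, measured 19.4, 23.4, 19.6 and 24.6 CPM in dKO and 34.3, 27.4, 35.7 and 36.1 CPM in control atria (log2 -0.60, limma adjusted p = 0.00605), and lost its call within the title number that holds 2 embryos of each genotype. The other fall, the ligand Dll1, lost its call with no filter, with edgeR and in every fit that left out 1 library other than dKO atrium 4 (log2 -0.44 with all libraries). At an unadjusted p under 0.05, 3 genes of the list rose and 5 fell; edgeR called 0 rises and 1 fall, DESeq2 2 and 4, and limma called 2 rises without dKO atrium 1 and 1 without control atrium 3.

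Imprinted genes are expressed from 1 parental copy, and several control growth before birth. Of 20 tested 5 fell and 2 rose, with a median of 0.043, and the 5 falls were called without any single library. Of these falls 3 were neighbours at the Peg3 domain at the start of chromosome 7. Peg3, a zinc finger protein (chr7:6703892-6730431, GRCm38, minus strand), measured 486, 497, 501 and 443 CPM in dKO and 769, 716, 666 and 655 CPM in control atria (log2 -0.54, limma adjusted p = 0.000784). Zim1, a zinc finger gene beside it (chr7:6671269-6696450, minus strand), measured 140.1, 114, 124 and 101 CPM in dKO and 303, 278, 270.5 and 273 CPM in control atria (log2 -1.23 ± 0.09 (SE; limma adjusted p = 1.36e-05)). Usp29, a ubiquitin protease gene on the other side of Peg3 (chr7:6730578-6967219, plus strand), measured 23.2, 24.2, 25.1 and 25.3 CPM in dKO and 35.6, 34.5, 37.1 and 35.5 CPM in control atria (log2 -0.53, limma adjusted p = 0.00028). All 3 were lower in every dKO atrium than in any control, and the fall of Zim1, which is expressed from the maternal copy, was the largest. Mest, on chromosome 6, measured 1565, 1191, 1237 and 1081 CPM in dKO and 2117, 1919, 1903 and 1945 CPM in control atria (log2 -0.65, limma adjusted p = 0.00405); its exons overlap Copg2 on the opposite strand. Grb10, a growth inhibitor outside the naming rule that was chosen after its values were seen, measured 619, 667, 665 and 646 CPM in dKO and 815, 785, 810.1 and 757 CPM in control atria (log2 -0.29, limma adjusted p = 0.0115). The number of rises was 1 without control atrium 4 and 4 without dKO atrium 4.

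Elastic fibre and matricellular genes, which make and tune the matrix around cells, had the largest share of members called higher among the lists shown in the plot of called shares. Of 43 tested 19 rose and 1 fell, 42 had a positive log2 difference, and the median was 0.39. The rises numbered 12 without dKO atrium 2 or control atrium 2 and 11 without control atrium 4. In the fits that left out 1 library they ranged from 11 to 27. Ssc5d, a secreted scavenger receptor protein, measured 18.7, 22.6, 22.3 and 21.4 CPM in dKO and 5.32, 4.66, 7.30 and 5.26 CPM in control atria (log2 1.76, limma adjusted p = 1.30e-05). Fmod, the collagen-binding proteoglycan fibromodulin, measured 82.7, 82.2, 94.4 and 78.5 CPM in dKO and 56.7, 52.4, 49.1 and 45.1 CPM in control atria (log2 0.72, limma adjusted p = 0.000248). Spon1, a secreted adhesion protein, measured 494, 502, 537 and 421 CPM in dKO and 345, 300.4, 293 and 253 CPM in control atria (log2 0.72, limma adjusted p = 0.00118). Sparc, an abundant matricellular protein, measured 1634, 1703, 1744 and 1987 CPM in dKO and 1335, 1349.8, 1391 and 1282 CPM in control atria (log2 0.40, limma adjusted p = 0.0117). The fall was Thbs4, a thrombospondin of heart and tendon, with 35.1, 35.4, 38.2 and 39.8 CPM in dKO and 61.7, 54.1, 73.5 and 67.3 CPM in control atria (log2 -0.77, limma adjusted p = 0.000352). In all 5 the groups stayed apart.

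Of 37 collagen genes 4 rose and 1 fell (13.5% called beside 7.47% over all tested genes), with a median of 0.27 and 30 positive differences. Without dKO atrium 1 the rises numbered 11, and without control atrium 1, dKO atrium 2, control atrium 2, dKO atrium 3 or control atrium 4 they numbered 1 or 2; the fall was called in 2 of the 8 fits that left out 1 library. Col2a1, a cartilage collagen also made in valves, measured 36.0, 26.2, 23.3 and 46.7 CPM in dKO and 18.99, 11.1, 15.4 and 9.65 CPM in control atria (log2 1.20, limma adjusted p = 0.00907), with dKO atrium 4 the highest and control atrium 1 the highest control. Within the title number that holds 2 embryos of each genotype its call was lost (log2 0.73, limma adjusted p = 0.0788). Of 41 integrin, laminin and related genes 5 rose and 3 fell (median 0.037), with 3 rises without dKO atrium 2, dKO atrium 3 or control atrium 4. Itga9 rose, with 80.9, 81.2, 84.4 and 69.3 CPM in dKO and 57.1, 51.6, 56.6 and 51.97 CPM in control atria (log2 0.53, limma adjusted p = 0.000915), and Itga6, given above, was the largest fall of the list.

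Summed markers of fibroblasts, macrophages, the epicardium and the endothelium were higher in 3 or 4 of the 4 dKO atria than in any control. Sums of neuron and glia markers and of erythroid markers overlapped. The 13 fibroblast markers summed to 6699, 9403, 8320.3 and 10966 CPM in dKO and 6466, 6361, 7699.7 and 5849 CPM in control atria. dKO atrium 1, from the embryo that alone holds its title number, lay within the control range, and the other 3 dKO atria lay above it. Of the 13 markers 4 rose and 1 fell, with 10 rises without dKO atrium 1, 2 without control atrium 4, and no fall without dKO atrium 2, control atrium 2, dKO atrium 3 or control atrium 4. The 14 macrophage and leukocyte markers summed to 141, 213, 216 and 225 CPM in dKO and 154, 133, 155 and 131 CPM in control atria, again with dKO atrium 1 alone within the control range; 2 rose, against 8 without dKO atrium 1 and 1 without dKO atrium 2, dKO atrium 3 or control atrium 4. F13a1, a coagulation factor subunit made by macrophages, measured 16.8, 21.2, 20.6 and 25.4 CPM in dKO and 9.55, 7.92, 9.995 and 6.48 CPM in control atria (log2 1.22, limma adjusted p = 0.000438). Cspg4, a proteoglycan of pericytes, measured 30.1, 38.5, 31.1 and 33.2 CPM in dKO and 10.9, 13.3, 16.3 and 15.2 CPM in control atria (log2 1.21, limma adjusted p = 0.000114), and F13a1 and Cspg4 were higher in every dKO atrium than in any control. Of the 10 smooth muscle and pericyte markers, given above, 4 rose and Abcc9 fell (log2 -1.12), and their sums without Acta2 overlapped. Epicardial markers summed to 527 to 621 CPM in dKO against 448 to 513 CPM in control atria, and valve mesenchyme markers to 89.2 to 147 against 64.5 to 85.0 CPM. Col2a1 was the 1 called gene of the 10 valve markers, and without it they summed to 53.2, 80.0, 71.6 and 100.04 CPM in dKO and 58.1, 63.8, 69.6 and 54.8 CPM in control atria, which overlapped; without dKO atrium 1, 4 of the 10 were called higher. Endothelial markers summed to 2195, 1943, 1885 and 1627 CPM in dKO against 1721 to 1769 CPM in control atria. Their sums lay above every control in dKO atria 1 to 3 and below every control in dKO atrium 4. None of the fibroblast, epicardial, endothelial, smooth muscle, macrophage or valve markers was at 0 reads in all libraries. The fibroblast markers include Col1a1, Col1a2 and Col3a1, which also count among the collagen genes above. They also include Fbln1, which counts among the elastic fibre and matricellular genes. The part of these cell types in the matrix results was not tested.

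**Figure D4:**
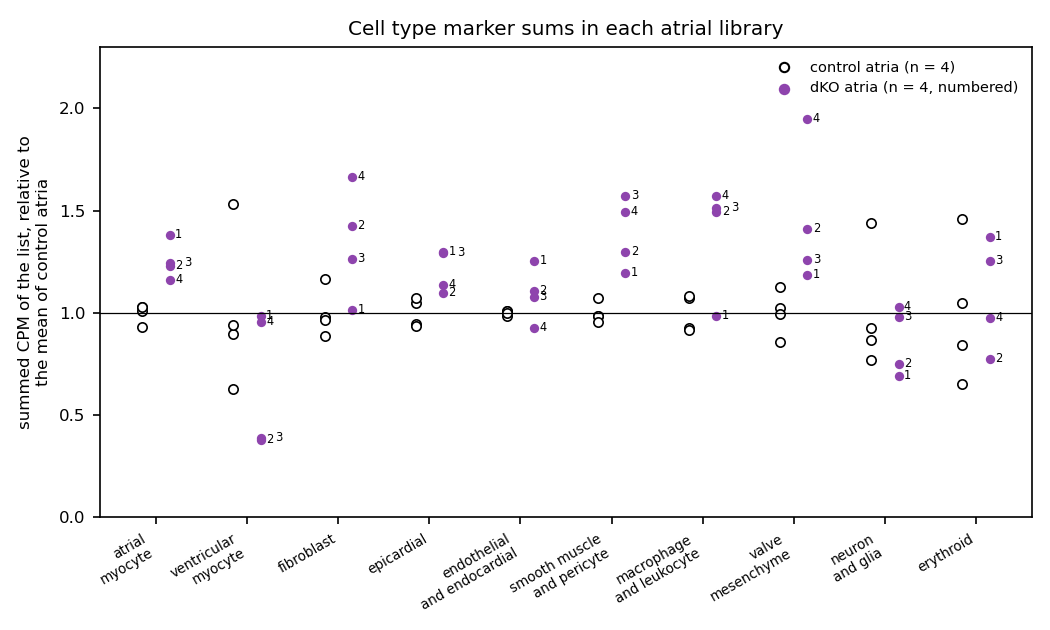
Summed CPM of each cell type marker list in each atrial library, divided by the mean of the 4 control atria for that list. Open circles are control atria and purple circles dKO atria with their library number. Fibroblast and macrophage sums lie above control in dKO atria 2 to 4 and within the control range in dKO atrium 1. Atrial myocyte sums lie above control in every dKO atrium. Endothelial sums lie above control in dKO atria 1 to 3 and below it in dKO atrium 4. Erythroid, neuronal and ventricular sums overlap.

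Of the glucose transporters, 1 fell and 1 rose. Slc2a1, the transporter GLUT1, fell, with 143, 151, 176 and 151 CPM in dKO and 284, 259.5, 222 and 257 CPM in control atria (log2 -0.71, limma adjusted p = 0.000352), and Slc2a3, the transporter GLUT3, rose, with 28.7, 29.9, 30.8 and 30.7 CPM in dKO and 19.7, 17.5, 20.2 and 14.5 CPM in control atria (log2 0.72, limma adjusted p = 0.00104). Hk1, the hexokinase of the first step of glycolysis, fell, with 161, 191, 186 and 192 CPM in dKO and 279, 259, 262 and 275 CPM in control atria (log2 -0.56, limma adjusted p = 0.000338). The groups were apart in all 3 genes. Of 36 hypoxia and glycolysis genes 5 fell and 1 rose (median -0.044), with 3 falls without dKO atrium 2, control atrium 2 or control atrium 4. Of 37 genes of fatty acid uptake and oxidation 5 fell and 1 rose (median -0.13), with 3 falls without dKO atrium 2 or dKO atrium 3, no rise without control atrium 1, dKO atrium 2, dKO atrium 3, control atrium 3 or control atrium 4, and 2 rises without dKO atrium 4. Eci1, an isomerase of fatty acid oxidation, measured 35.5, 31.4, 30.3 and 32.2 CPM in dKO and 42.0, 43.3, 45.04 and 45.4 CPM in control atria (log2 -0.43, limma adjusted p = 0.00183). Fabp3, the fatty acid binding protein of heart, whose exons overlap another gene, measured 87.3, 87.1, 109 and 115 CPM in dKO and 143, 155, 149 and 179 CPM in control atria (log2 -0.65, limma adjusted p = 0.00263).

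Of 50 nuclear genes of oxidative phosphorylation limma called none, although 47 had a negative difference and the median was -0.13. At an unadjusted p under 0.05, 18 were lower and 0 higher; edgeR called 0 and DESeq2 6 lower, and limma called 5 lower without dKO atrium 4 and 1 without control atrium 3. Of 65 ribosomal protein genes limma, edgeR and DESeq2 called 0 (median -0.045; 2 lower at an unadjusted p under 0.05), and limma called 5 lower without dKO atrium 4. Of 38 cell cycle genes 1 fell and none rose by limma (median -0.063; 3 higher and 9 lower at an unadjusted p under 0.05, edgeR 0 and 1, DESeq2 0 and 2); the falls numbered 2 without dKO atrium 1 or control atrium 3 and 0 without control atrium 1, dKO atrium 2, control atrium 2 or control atrium 4. Of 14 cell cycle inhibitors none was called by limma, edgeR or DESeq2, and 2 had an unadjusted limma p under 0.05.

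The differences in atria were set beside those of the 8 ventricular libraries of the same embryos. In ventricles 279 genes (2.0%) were called, and recovered reads were fewer there in dKO (7880189 to 14281320) than in control libraries (15635416 to 22975051). Of the 1042 atrial calls 128 were also called in ventricles with the same sign, 67 higher and 61 lower, which is 12.3% of the atrial and 45.9% of the ventricular calls. How far the dKO minus control difference itself differed between atria and ventricles was tested in all 16 libraries with the embryo as a block (limma), and 368 genes (2.64%) were called. Of the 1042 genes called in atria 302 (29.0%) were among them. Dsc2 measured 35.04 to 38.7 CPM in dKO and 34.8 to 38.7 CPM in control ventricles, and its difference between chambers was -2.12 on the log2 scale (adjusted p = 5.74e-09 by limma). Csrp2 differed by 0.26 in ventricles against 1.51 in atria, a difference of 1.25 (limma adjusted p = 3.12e-07). Uts2b was under the floor of 3 reads in every ventricular library, so it has no ventricular fold, and its difference between chambers of -3.16 rests on the atrial levels. Nppa went the other way, with a larger rise in ventricles (1.90) than in atria, a difference of -1.26 (limma adjusted p = 0.000966). Nrtn, Ntn1 and Cspg4 differed from control in atria but by -0.16, 0.041 and -0.15 in ventricles, and their differences between chambers were -1.28, -1.14 and 1.36 (limma adjusted p 0.000177, 0.000677 and 1.61e-05).

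For 5 genes both chambers were called with opposite signs. Adra1d, outlined above, rose in atria and fell in ventricles, where it measured 0.781 to 1.11 CPM in dKO and 2.12 to 5.02 CPM in control libraries, a difference between chambers of 2.12 (limma adjusted p = 0.0001). Atp1b1, a subunit of the sodium pump whose exons overlap another gene, differed between chambers by 0.50 (limma adjusted p = 0.000157). Ephb3, an ephrin receptor, Mpped2, a phosphodiesterase, and Nlrp10, of the NLR family, complete the 5; Ephb3, Mpped2 and Nlrp10 were picked with their values in view and lie outside the naming rule. Nlrp10 was the only 1 of the 5 to fall in atria (log2 -0.46), with 41.0 to 46.3 CPM in dKO against 57.3 to 65.1 CPM in control atria, and it measured 34.4 to 39.5 CPM in dKO against 23.3 to 27.6 CPM in control ventricles. The atrial call of Ephb3 was lost without control atrium 1, control atrium 2 or dKO atrium 2. In ventricles the calls of Mpped2 and Atp1b1 were lost with edgeR, and those of Atp1b1 and Adra1d with no filter on low values. Meis1 and Meis2 differed between chambers by -0.60 and 0.79 (limma adjusted p 0.00464 and 0.000573), as Meis1 was lower in atria and Meis2 in ventricles of dKO embryos.

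**Figure D5:**
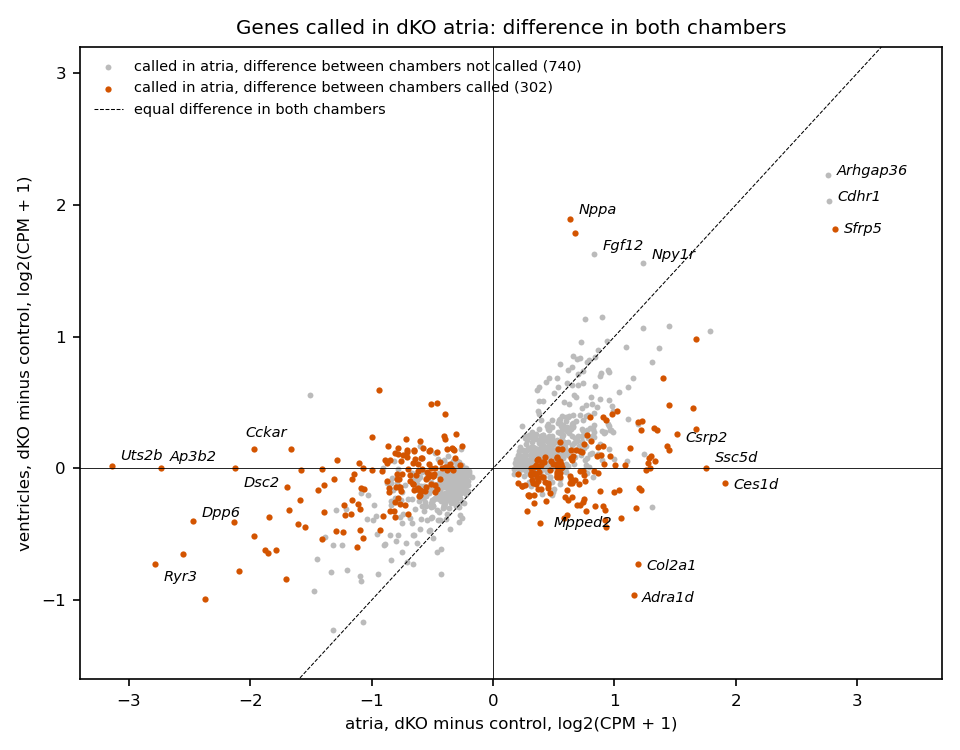
Difference between dKO and control (log2 of CPM plus 1) in ventricles against that in atria for the 1042 genes called in atria. Orange points are the 302 genes whose difference was unlike in the 2 chambers by the test, grey points the other 740, and the dashed line marks equal differences; Uts2b, Ap3b2 and Dsc2 lie far to the left near 0 in ventricles, and Nppa lies above the line.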

How the data were processed

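RNA of 8 atria and 8 ventricles from 8 embryos was measured by sequencing. The authors deposited 1 table of normalized CPM (counts scaled to a common library total) for 16118 genes. The submitters' processing notes name cutadapt, RSEM 1.3.1 and GRCm38. The normalization method, annotation and use of strand were not given in the sources used here. The deposited CPM values were whole multiples of a step fixed for each library, plus 0.5 of that step, and 100% of them gave whole reads within a tolerance of 0.001 reads. RSEM gives estimated counts, so these reads are rounded estimates at best, and they served depth, the floor of 3 reads and the edgeR and DESeq2 alternatives only. A count of 3 reads as the floor covers counting error only.

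Every gene that averaged 1 CPM or more over the 16 libraries was tested on log2(CPM + 1), with a pseudocount of 1, in the 8 atrial libraries with limma 3.58.1 (R 4.3.3, variance trend, two-sided), and was called at a Benjamini-Hochberg adjusted p under 0.05. On this scale the change of low genes is understated. Differences in atria and ventricles were compared in 1 model of 16 libraries with the embryo as a block (consensus correlation 0.108). Alternatives used other pseudocounts, filters, scalings, variance priors and covariates, fewer libraries, edgeR 4.0.16 and DESeq2 1.42.0. On simulated data for this comparison with 13950 genes, of which 200 were changed, limma found 77% of genes changed by log2 1 and 41% of those changed by 0.5, and 7.81% of its calls were false.

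Genes named are Meis1 and Meis2, genes among the 15 largest rises and 15 largest falls in log2 and the 10 largest of each in CPM (both from called genes with an ordinary symbol and no overlap between groups), up to 4 called members of each of 54 gene lists with the smallest adjusted p, and the 5 largest differences between chambers in each direction; some were left out where they added nothing. The 54 lists and the comparison were chosen with earlier results of these data known. Of the listed gene IDs 16096 matched GENCODE M21 (GRCm38), which gave the coordinates. Positions were taken for the genes of the naming rule and for every called member of the lists, 259 genes together. Of these, 41 share exonic positions with another listed gene, which lies on the opposite strand for 38.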

Additional observations from a re-analysis of the deposited data

Results flagged for a closer look

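In 12 of the 220 groups of 4 values checked, 1 library stood apart from the other 3, by a gap above the critical share of the range of its group (Dixon's test). Chance gives about 1 in 20 such groups, so this number is close to what chance gives. Among dKO atria, dKO atrium 1 was the high value in Myl3 (59.06 CPM), Ntn1 (61.35 CPM), Pln (153.9 CPM) and Syndig1 (11.17 CPM), and dKO atrium 4 the low value in Fzd1 (100.7 CPM) and Ripor2 (16.04 CPM). Among controls, atrium 3 was low in Camk2a (104.6 CPM) and Gsg1l (41.18 CPM) and high in Pdgfrb (62.24 CPM), atrium 4 stood apart in Edn1 (14.21 CPM) and Mdk (179.8 CPM), and atrium 2 was the high value in Fzd1 (67.14 CPM). Of these genes, only Pln had overlapping groups.

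For 20 named genes the difference between dKO and control was not the same in atria and ventricles by the limma test of that contrast. The log2 difference in atria minus that in ventricles was -0.601 for Meis1 and 0.789 for Meis2. It was negative for Uts2b (-3.163), Ap3b2 (-2.742), Dsc2 (-2.124), Cckar (-2.121), Dpp6 (-2.072), Nrtn (-1.278), Nppa (-1.262), Ntn1 (-1.144) and Nlrp10 (-0.954). It was positive for Adra1d (2.122), Ces1d (2.024), Col2a1 (1.921), Ssc5d (1.756), Cspg4 (1.357), Csrp2 (1.252), Mpped2 (1.129), Ephb3 (0.804) and Atp1b1 (0.499). The calls of all 20 were kept whichever 1 of the 8 atrial libraries was left out. Adra1d, Ces1d, Uts2b, Ap3b2, Cckar and Dpp6 had a mean under 5 CPM over the 16 libraries and were not tested under the stricter filter on low values.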

How the results depend on the processing

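The count of 1042 called genes was 1031 with edgeR and 1552 with DESeq2, and 695 to 1201 when 1 atrial library was left out. DESeq2 called 726 genes lower against 479. Leaving out 1 library gave 359 to 654 rises, 313 to 547 falls and 272 to 474 differences between chambers. Of the 109 called genes among the 110 named, 97 kept their call under every alternative that gave a value, and no direction reversed. Most named genes were chosen for large differences or small adjusted p in these same data, which favours kept calls. Over all 1042 called genes, 489 kept their call under every alternative that gave a value. Calls were lost for Adm, Col2a1, Dll1, Ephb3, Hey1, Mdk, Mpped2, Nppa, Pln, Ptn, Sost and Syt7, in 45 of 2190 values; the cause was not tested. Within the title number that holds 2 embryos of each genotype, the calls of Adm, Col2a1, Dll1, Hey1, Mpped2, Nppa and Syt7 were lost. The median log2 difference of all genes lay between -0.0102 and 0.0007 under all alternatives, and was -0.0102 with TMM scaling and -0.0074 with quantile normalization. No paired analysis was possible because the replicate numbers are in accession order and mark no shared litter. With the number at the start of the title as a covariate 1392 genes were called, 760 higher and 632 lower, and with all 16 libraries and the embryo as a block 1459. dKO atrium 1 is alone in its title number, so with the title number as a covariate that library adds nothing to the estimated genotype difference. The planned covariate from the level of Xist was not run, since it could not be fitted from the genes used here. The Y-linked genes Ddx3y, Eif2s3y, Uty and Kdm5d summed to 138 to 159 CPM in dKO and 140 to 157 CPM in control atria. Depth limits the genes near 3 reads, such as Uts2b in dKO atria, where the size of the fall depends on the pseudocount.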
